A study of Mus musculus with 28 samples.

Results

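The clustered protocadherins are the genes of the Pcdha, Pcdhb and Pcdhg families, which lie side by side on mouse chromosome 18. They were chosen by symbol alone, as all rows of the deposited gene tables named for a numbered member of the alpha, beta or gamma cluster, and 58 of 23038 genes met this rule. The alpha cluster held 14 of them, the beta cluster 22 and the gamma cluster 22, at positions 36930285 to 37188897, 37264998 to 37521419 and 37661775 to 37841873 of chromosome 18 (GRCm38, which is mm10). RNA-seq libraries of whole tissue came from NOVA1(hu/hu) mice, in which the codon of the RNA-binding protein NOVA1 that differs between mouse and modern human was edited by CRISPR/Cas9 to the human form, and from NOVA1(wt/wt) littermates, which are called hu/hu and wt/wt hereafter. All mice had a BL6 background and carried no transgene or further allele named in the labels. Embryonic midbrain (E18.5) gave 6 hu/hu and 6 wt/wt libraries, and postnatal (P21) midbrain and cortex gave 4 and 4 each, which makes 28 libraries with 18550922 to 45134998 counts per library. Counts per gene cannot show the edited residue, so the genotype labels were not checked from the counts. That each library came from a separate mouse is not stated by the labels, so the p-values below measure the spread between these libraries.

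Clustered protocadherins are cadherin-type adhesion proteins of the neuronal surface. A neuron chooses a few of the variable alpha, beta and gamma genes, largely at random and through promoter choice by CTCF, cohesin and DNA methylation, while the C-type genes at the end of the alpha and gamma clusters are used more uniformly or in particular cell types. The proteins pair in cis and bind the same combination on a facing membrane, and this homophilic recognition is known for the self-avoidance of axons and dendrites, for the spacing of serotonergic axons and, for the gamma C-type proteins, for the survival of neurons. Each alpha and gamma gene supplies a large variable first exon, which encodes the extracellular, transmembrane and proximal cytoplasmic parts and is spliced to constant exons common to its cluster. The beta genes have no constant exons, so their rows can be read gene by gene, and they are described first and apart from the others.

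Marker genes separated the tissues as labelled. All 5 midbrain markers were higher in P21 midbrain than in P21 cortex. The dopamine neuron genes Slc6a3, En1 and Pitx3 had mean levels under 1 TPM (a level scaled by exon length and by the library's total) in cortex, and the cortex markers Tbr1 and Emx1 had mean levels under 1 TPM in P21 midbrain. Pitx3 was under 1 TPM in P21 midbrain as well. Choroid plexus markers (Ttr, Kl, Clic6) varied most between libraries of a tissue, with a summed level of 39.99 to 3624 TPM at E18.5, 11.5 to 3014 TPM in midbrain at P21 and 1147 to 2186 TPM in cortex. Cerebellar granule cell markers (Gabra6, Cbln3, Neurod1) summed to 3.54 to 7.83 TPM in hu/hu and 3.82 to 20.6 TPM in wt/wt libraries of P21 midbrain. Of these markers, 2 were higher and 1 lower in P21 midbrain than in P21 cortex, and 0 were called between genotypes in P21 midbrain. The part of both marker sets in the results below was not tested.

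Levels within the beta cluster were low to moderate and graded. Summed over its 22 genes, the level was 130 ± 9.42 TPM at E18.5 (SD, n = 12), 73.2 ± 2.36 TPM in P21 midbrain (n = 8) and 73.1 ± 4.02 TPM in P21 cortex (n = 8). The lowest, median and highest summed level were 115, 134 and 144 TPM at E18.5, 70.3, 73.7 and 76.8 TPM in P21 midbrain, and 67.8, 72.9 and 77.9 TPM in P21 cortex, so the P21 ranges lay entirely below the E18.5 range and overlapped each other. Pcdhb17 was the highest beta gene in each tissue, at 14.5 ± 1.22 TPM at E18.5, 8.73 ± 0.536 TPM in midbrain at P21 and 9.70 ± 0.540 TPM in P21 cortex. Next came Pcdhb20 at E18.5 (13.1 ± 1.40 TPM) and in cortex (7.20 ± 0.367 TPM), and Pcdhb22 in P21 midbrain (6.43 ± 0.459 TPM). The 3 highest beta genes together held 29.8% ± 1.31 of the beta level at E18.5, 28.8% ± 0.833 in midbrain at P21 and 31.5% ± 0.939 in P21 cortex. In each tissue the level therefore came from many genes rather than from a few.

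At the other end, Pcdhb2 had 2.46 ± 0.434, 1.17 ± 0.242 and 0.906 ± 0.199 TPM in the E18.5, P21 midbrain and P21 cortex libraries. Pcdhb1, the member nearest the alpha cluster, was at the limit of detection, with 0 to 6 counts per library in each midbrain set, 1 to 3 counts per library in cortex, and 0 counts in 2 of 12 E18.5 and 2 of 8 P21 midbrain libraries, where a count of 0 allows up to 3 counts by counting error alone. It was the only member that failed the filter on low counts in each comparison, which left 57 members tested. Ordered by mean TPM, the 21 other beta genes formed 20 neighbouring pairs, and the library ranges of the 2 genes overlapped in 20 of these pairs at E18.5 and in 18 in each P21 tissue, so most neighbours in the order did not differ beyond their spread. The order itself was similar between tissues, with Spearman's rho over the 22 beta genes of 0.755 between the 2 ages of midbrain and 0.898 between P21 midbrain and cortex, as a description across genes that share libraries. Levels in P21 midbrain also tended to be higher toward the gamma end of the beta cluster (rho 0.561 with position over 22 genes).

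**Figure D1:**
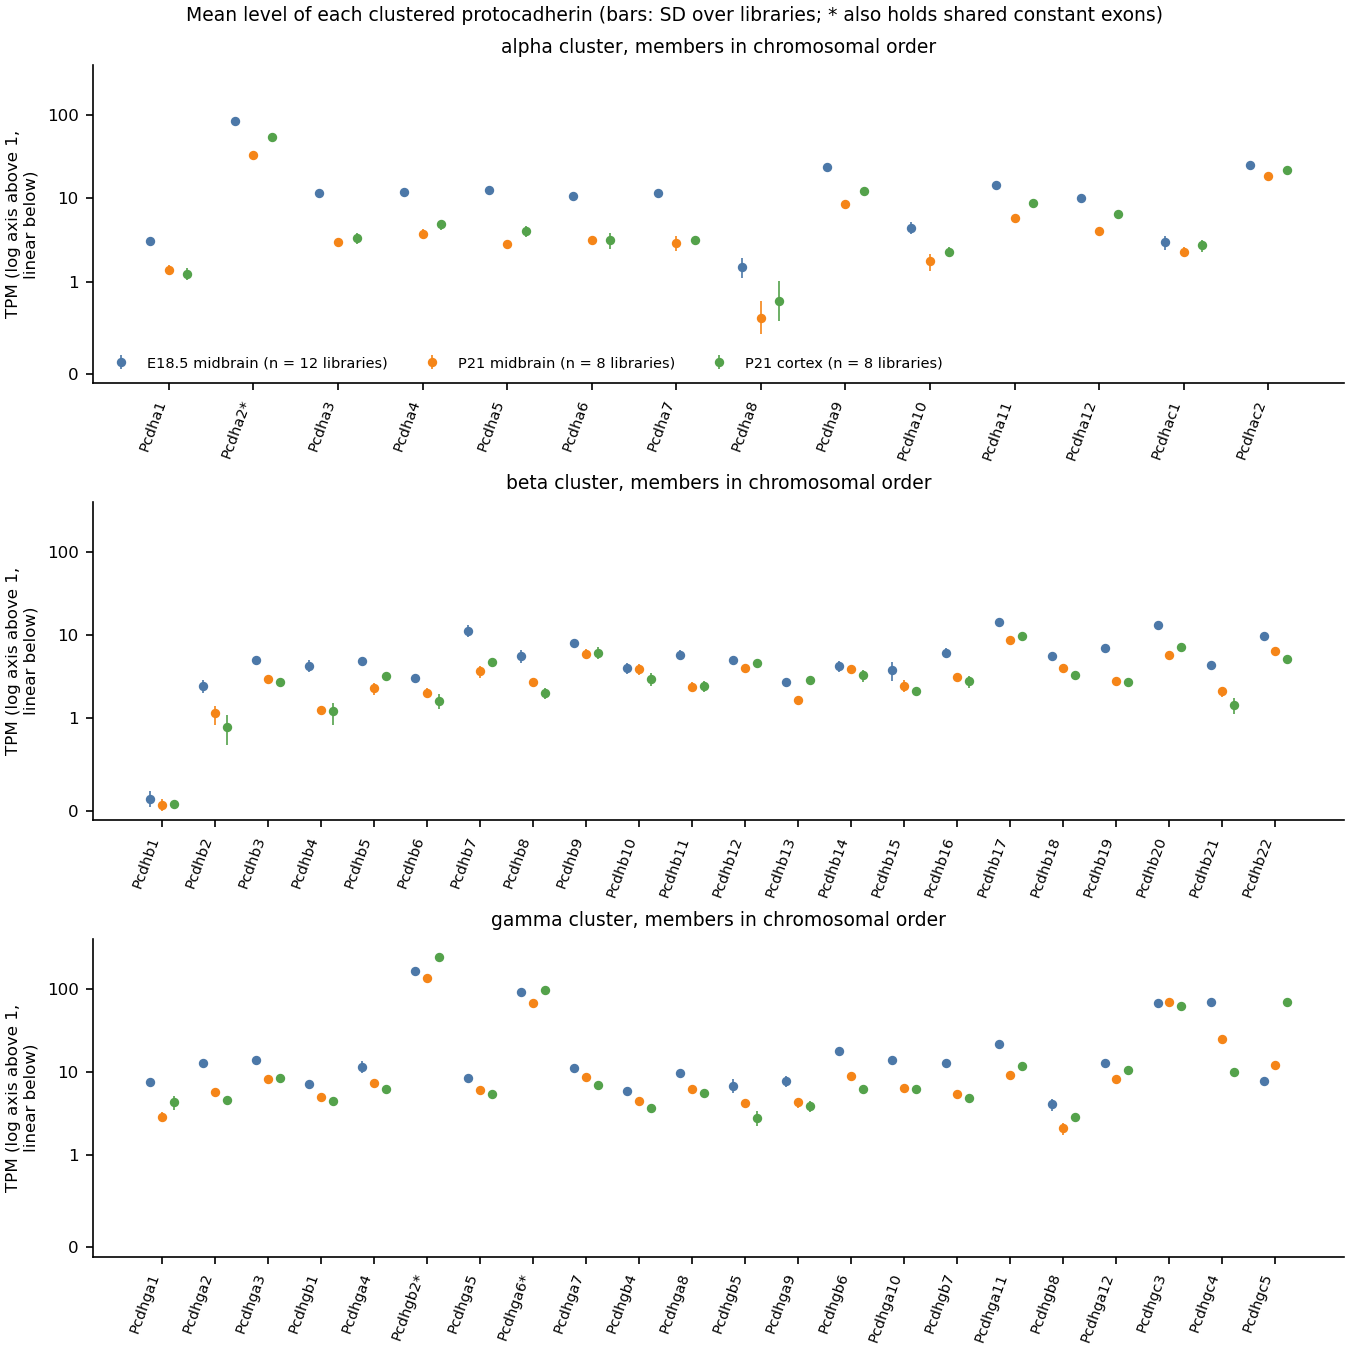
Mean TPM of each of the 58 members in chromosomal order, one panel per cluster, for 12 E18.5 libraries and 8 libraries each of P21 midbrain and P21 cortex, with bars for the SD; the axis is logarithmic above 1 TPM and linear below. Pcdhb1 is near 0, and the starred Pcdha2, Pcdhga6 and Pcdhgb2, which are taken to hold constant exons as well, stand above the variable members, and Pcdhgc3 is high in each tissue.

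The question of how the beta genes differ with age was addressed with the 20 midbrain libraries. Of 21 beta genes tested, 18 were lower at P21 than at E18.5, none was higher, and 5 were lower by at least 2-fold (edgeR's quasi-likelihood test, p under 0.05 and adjusted p under 0.1). Among all 16330 genes, 85.6% were called in this comparison, 43.3% as lower and 42.4% as higher, and 30.6% were called with at least a 2-fold difference, 14.6% as lower and 15.9% as higher. Log2 fold changes are edgeR's fitted values on counts, which are not scaled by length, after its TMM scaling of the libraries. TPM is a share of the library's own total, so the 2 can differ for one gene. The median log2 fold change of all genes was −0.02 with TMM scaling and −0.17 with total counts only. The median log2 fold change of the beta genes was −0.56 with TMM scaling, with a range from −1.53 to 0.13. Because tissue was measured in bulk, fewer cells of a type and less RNA per cell cannot be told apart, and neither can age and any difference in how the libraries of the 2 ages were made.

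Pcdhb4 fell the most. It had 3.46, 4.0 and 5.67 TPM in the lowest, median and highest E18.5 library and 1.04, 1.27 and 1.5 TPM at P21, which did not overlap (log2 fold change −1.53 ± 0.107 (SE), 2.89-fold, adjusted p = 5.42e-13). Next came Pcdhb7, which went from 8.94 to 14.6 TPM at E18.5 to 2.77 to 4.65 TPM at P21 (log2 fold change −1.42 ± 0.108, adjusted p = 3.73e-12). Pcdhb19 went from 5.74 to 8.59 TPM to 2.45 to 3.31 TPM (log2 fold change −1.13 ± 0.081, adjusted p = 9.71e-13). Ranges at the 2 ages were thus separate for these genes, as they were for 15 of 22 beta genes in all. How many of all genes had separate ranges was not counted, so this count has no background beside it. The beta genes with the most positive values were Pcdhb10 at a log2 fold change of 0.13 ± 0.102 (adjusted p = 0.233), Pcdhb14 at 0.09 ± 0.083 (adjusted p = 0.338) and Pcdhb12 at −0.10 ± 0.084 (adjusted p = 0.263), and none of them passed the test. With total counts only, Pcdhb14 and Pcdhb10 turned to −0.07 and −0.02, and Pcdhb12 was called lower (−0.26, adjusted p = 0.00904).

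Variable alpha genes had the largest median age difference of the groups of members. Beside 43.3% of all genes called lower, and 14.6% by at least 2-fold, all 12 were lower at P21 and 11 by at least 2-fold. The median log2 fold change of the 12 was −1.20, with a range from −1.96 to −0.94. Their summed level without Pcdha2, whose row is treated below, was 109, 116 and 124 TPM in the lowest, median and highest E18.5 library and 35.9, 37.6 and 41.0 TPM in P21 midbrain. None of the 12 had overlapping TPM ranges at the 2 ages, though the share of all genes without overlap was not counted. Pcdha5 fell from 12.7 ± 1.35 TPM (n = 12) to 2.83 ± 0.235 TPM (n = 8), a log2 fold change of −1.96 ± 0.083 (adjusted p = 1.31e-17). Pcdha7 fell from 11.5 ± 1.16 TPM to 2.94 ± 0.599 TPM (log2 fold change −1.78 ± 0.089, adjusted p = 4.78e-16), and Pcdha3 from 11.6 ± 1.12 TPM to 3.04 ± 0.250 TPM (log2 fold change −1.73 ± 0.075, adjusted p = 2.16e-17). At the other end of the group stood Pcdha1 (−0.94 ± 0.120), Pcdha8 (−1.09 ± 0.194) and Pcdha11 (−1.12 ± 0.052).

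Pcdha9 and Pcdha11 had the highest levels of the variable alpha genes in each tissue, Pcdha2 apart. Without Pcdha2, the 3 highest of 11 variable alpha genes held 44.0% ± 1.20 of the summed TPM at E18.5, 48.6% ± 1.14 in midbrain at P21 and 54.6% ± 2.55 in P21 cortex. Pcdha9 led in each tissue, at 23.8 ± 1.41, 8.61 ± 0.843 and 12.4 ± 1.14 TPM. Pcdha8 was lowest, at 1.52 ± 0.409, 0.609 ± 0.178 and 0.795 ± 0.225 TPM, and Pcdha1 second lowest, at 3.06 ± 0.413, 1.39 ± 0.198 and 1.25 ± 0.203 TPM. The deposited exon length of Pcdha11, 3835 nt, includes 1441 nt of a long form of a constant exon that the annotation gives for it alone, so its TPM is per a longer stretch than that of its neighbours.

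In the alpha and gamma clusters 3 rows were taken to hold more than their own gene. The deposited exon length of each row was set beside the exon lengths in the reference annotation to find the rows to which the shared constant exons were assigned. Of the 36 alpha and gamma members, 33 had lengths of 2346 to 3835 nt (median 2436 nt), about that of a variable first exon. Pcdha2 had 5216 nt, which leaves 2356 nt once the 3 alpha constant exons (2860 nt together) are taken off. Pcdhgb2 had 4482 nt, which leaves 2511 nt without the long gamma constant exon of 1971 nt. Pcdhga6 had 2572 nt, which leaves 2424 nt without the 2 short gamma constant exons of 148 nt together. That length is near the gamma median of 2566.5 nt and within the range of the 33 other rows, so length alone does not mark Pcdhga6. Its counts were 1178 to 3045 per library, where the highest count of any other gamma A or B row apart from Pcdhgb2 was 641. By these lengths the counts of the other 33 rows, apart from that of Pcdha11, were taken as those of the gene's own first exon. Reads from any alpha transcript can count for Pcdha2, and reads from any gamma transcript for Pcdhgb2. For Pcdhga6 the same was inferred and is not settled by its length. Pcdha2 took 54% ± 0.919 of the alpha counts at E18.5, 52.9% ± 1.98 in midbrain at P21 and 59.4% ± 1.57 in P21 cortex. Pcdhgb2 took 39.8% ± 0.769, 45.9% ± 0.482 and 55.0% ± 1.11 of the gamma counts, and Pcdhga6 took 12.7% ± 0.597, 13.2% ± 0.525 and 12.9% ± 0.370. The rows of Pcdha2 and Pcdhgb2 are therefore not levels of the named genes, and that of Pcdhga6 is treated likewise. The 3 are called the rows that hold constant exons hereafter, and counts without them are given beside each group.

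With age, the 2 gamma rows that hold constant exons moved less than most variable exons of the gamma cluster. Pcdhgb2 was listed at 140, 163 and 186 TPM (lowest, median and highest library) at E18.5 and 131, 135 and 140 TPM in P21 midbrain, with a log2 fold change of −0.05 ± 0.039 (adjusted p = 0.239). Pcdhga6 was lower at P21 (89.8 ± 9.27 against 67.8 ± 2.52 TPM, log2 fold change −0.20 ± 0.046, adjusted p = 0.000314). Pcdha2 was lower at P21 by 2.22-fold (84.5 ± 2.82 against 33.1 ± 1.84 TPM, log2 fold change −1.15 ± 0.034, adjusted p = 4.69e-21), within the range of the variable alpha genes.

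All 12 gamma A genes and 6 of 7 gamma B genes were lower at P21 than at E18.5, 2 and 1 of them by at least 2-fold, and none was higher. Of all genes, 43.3% were lower and 14.6% lower by at least 2-fold, so the 2-fold counts lie near that share. Without the rows that hold constant exons the counts of lower genes were 11 of 11 and 6 of 6, with median log2 fold changes of −0.53 and −0.63. Summed, the 11 gamma A genes went from 130 ± 8.40 TPM to 72.9 ± 1.67 TPM and the 6 gamma B genes from 54.3 ± 3.21 TPM to 29.8 ± 1.64 TPM. Within gamma A, Pcdhga1 fell the most (7.46 ± 0.542 to 2.87 ± 0.414 TPM, log2 fold change −1.19 ± 0.079, adjusted p = 2.15e-13), followed by Pcdhga11 (21.5 ± 2.21 to 9.16 ± 0.770 TPM, −1.03 ± 0.063) and Pcdhga10 (14.0 ± 1.52 to 6.35 ± 0.330 TPM, −0.93 ± 0.066). The least changed gamma A gene was Pcdhga7 (11.1 ± 0.741 to 8.66 ± 0.459 TPM, log2 fold change −0.15 ± 0.055, adjusted p = 0.0125), and Pcdhga5 had −0.29 ± 0.076 (adjusted p = 0.001). Pcdhgb7 fell the most in gamma B (12.7 ± 1.22 to 5.33 ± 0.585 TPM, log2 fold change −1.05 ± 0.069, adjusted p = 1.77e-13), ahead of Pcdhgb6 at −0.80 ± 0.064 and Pcdhgb8 at −0.75 ± 0.113. The smallest values among the called gamma B genes were −0.30 ± 0.074 for Pcdhgb1 and −0.22 ± 0.087 for Pcdhgb4. If the count of the lowest gamma member in the same library is taken off each gamma gene, as an extreme allowance for reads common to all of them, Pcdhga5, Pcdhga7, Pcdhgb1 and Pcdhgb4 turn to higher at P21 (0.10, 0.12, 0.27 and 0.90), so the direction of these 4 small differences depends on this allowance. With only the libraries of one genotype, the age calls of Pcdhga7 and Pcdhgb4 were lost with either and that of Pcdhgb1 with hu/hu. The call of Pcdhga7 was also lost with the replicate block (−0.14, adjusted p = 0.0589), where the unadjusted p was not under 0.05. That block joins libraries across ages, though their numbers did not pair them.

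Among the levels of these variable gamma genes, Pcdhga11 was the highest of gamma A apart from Pcdhga6 in each tissue, at 11.9 ± 0.775 TPM in P21 cortex. The lowest were Pcdhga1 and Pcdhga9, the latter at 7.79 ± 1.14, 4.28 ± 0.606 and 3.88 ± 0.602 TPM in the E18.5, P21 midbrain and P21 cortex libraries. Of gamma B, Pcdhgb6 led apart from Pcdhgb2 (17.7 ± 1.67, 8.82 ± 0.892 and 6.29 ± 0.384 TPM), and Pcdhgb8 was lowest in both midbrain sets (4.06 ± 0.652 and 2.09 ± 0.339 TPM). The highest of the 17 was 5.30, 4.38 and 4.25 times the lowest in the 3 tissues, and the like ratio was 15.6, 14.1 and 15.5 among the 11 variable alpha genes and 117, 142 and 138 among the 22 beta genes, of which Pcdhb1 was the lowest. The 3 highest of the 17 held 28.8% ± 1.07, 25.9% ± 0.807 and 31.2% ± 1.19 of their summed TPM. Spread between libraries was close to that of other genes of this abundance, with a median biological coefficient of variation of 0.119, 0.123 and 0.114 for the 21 beta genes in the fits of the E18.5, P21 midbrain and P21 cortex libraries, beside 0.128, 0.127 and 0.118 for the 4217, 3942 and 4573 other genes in the same range of log2 CPM.

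The gamma C-type genes did not share one direction, and Pcdhgc4 fell with age as the variable genes did. Pcdhgc4, which is known to be needed for neuronal survival, had 56.8, 70.2 and 78.5 TPM in the lowest, median and highest E18.5 library, 22.9, 24.7 and 26.5 TPM in P21 midbrain, and 9.34, 10.3 and 10.6 TPM in P21 cortex. All 3 ranges were separate. Pcdhgc5 had 7.03, 7.75 and 8.68 TPM at E18.5, 10.3, 11.9 and 12.9 TPM in P21 midbrain, and 62.8, 69.1 and 73.9 TPM in P21 cortex, also with separate ranges and in the opposite order. Pcdhgc3 had 53.5, 66.8 and 80.1 TPM, 63.4, 68.6 and 74.2 TPM, and 56.6, 61.6 and 67.3 TPM, and its ranges overlapped in each pair of tissues. With age in midbrain, Pcdhgc4 fell by 1.27 on the log2 scale (SE 0.051, 2.41-fold, adjusted p = 3.26e-18) and Pcdhgc5 rose (log2 fold change 0.83 ± 0.055, 1.78-fold, adjusted p = 1.94e-13). Pcdhgc3 had a log2 fold change of 0.24 ± 0.052 (adjusted p = 0.000194), which dropped to 0.08 (adjusted p = 0.171) with libraries scaled by total counts only, so its call rests on the scaling.

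Of the gamma C level, Pcdhgc3 made up 46.5% ± 2.23 at E18.5, 65.0% ± 1.1 in midbrain at P21 and 44.1% ± 2.09 in P21 cortex. Pcdhgc4 made up 48.0% ± 2.18, 23.6% ± 0.810 and 7.15% ± 0.388, and Pcdhgc5 5.45% ± 0.642, 11.4% ± 0.973 and 48.7% ± 1.92. Summed, the 3 genes had 143 ± 13.1 TPM at E18.5 and 141 ± 5.04 TPM in P21 cortex, close to each other, with 105 ± 3.95 TPM in P21 midbrain, so a similar total was composed differently in E18.5 midbrain and P21 cortex. That pair of tissues differs in both age and region and was not tested.

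The alpha C-type genes changed little with age. Pcdhac2, which is known for the spacing of serotonergic axons, had 21.4, 25.5 and 29.0 TPM in the lowest, median and highest E18.5 library, 16, 18.7 and 20.5 TPM in P21 midbrain, and 18.1, 22 and 24.7 TPM in P21 cortex. Its ranges at the 2 ages were separate, and its log2 fold change with age was −0.25 ± 0.056 (adjusted p = 0.000191). Pcdhac1 had 2.97 ± 0.547, 2.28 ± 0.298 and 2.74 ± 0.447 TPM, with −0.17 ± 0.118 with age (adjusted p = 0.178). It was called lower with total counts only (−0.33, adjusted p = 0.0126) and with the replicate block (−0.27, adjusted p = 0.0416), and turned to 0.39 with the lowest alpha count taken off, so no direction is given. Over all groups, 50 of 57 members were lower at P21 and 2 were higher, beside 43.3% and 42.4% of all genes. The 2 higher members were Pcdhgc3 and Pcdhgc5.

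**Figure D2:**
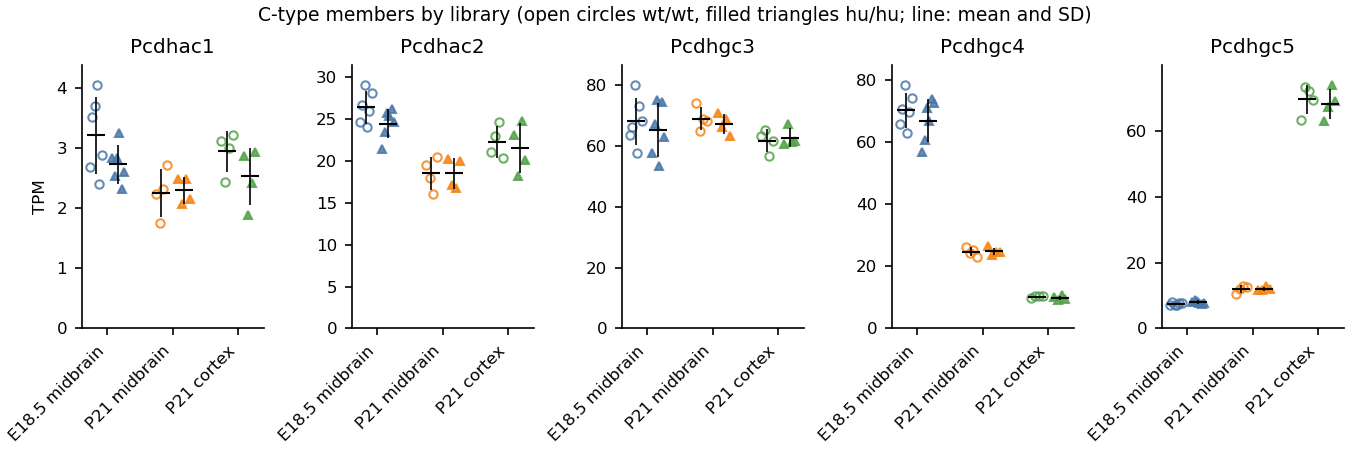
TPM of the 5 C-type members in each library by tissue, with open circles for wt/wt, filled triangles for hu/hu, and a line with a bar for the mean and SD of each group. Pcdhgc4 steps down from E18.5 midbrain over P21 midbrain to P21 cortex, Pcdhgc5 is at 62.8 to 73.9 TPM in P21 cortex and at most 12.9 TPM in midbrain, and the 2 genotypes overlap in each panel.

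Cell type markers moved strongly with age. The summed level of 5 oligodendrocyte markers was 58.2 to 81.9 TPM at E18.5 and 19816 to 22304 TPM in P21 midbrain, and all 5 were higher at P21. All 5 progenitor markers were lower at P21, from 198 to 253 TPM summed at E18.5 to 49.4 to 67.9 TPM. Of 5 neuron markers 3 were higher and 2 lower, with a summed level of 2807 to 3145 TPM at E18.5 and 3443 to 3810 TPM at P21. The part of these shifts in the age differences of the protocadherins was not tested.

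Between regions, most differences of the members were under 2-fold. At P21, 11 of 57 members were higher and 22 lower in midbrain than in cortex. Among all 16345 genes, 75.6% were called, 37.9% as higher and 37.7% as lower. Only Pcdhgc4 and Pcdhgc5 among the members differed by at least 2-fold, beside 15.4% of all genes (7.81% higher and 7.56% lower). Pcdhgc5 was 6.06-fold lower in midbrain (log2 fold change −2.60 ± 0.048, adjusted p = 1.46e-23) and Pcdhgc4 was 2.33-fold higher (1.22 ± 0.049, adjusted p = 5.39e-17), while Pcdhgc3 had 0.06 ± 0.036 (adjusted p = 0.165). The neighbouring genes of the gamma C group, which follow one another in the cluster, thus differed in opposite directions between the regions.

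Variable alpha genes were lower in midbrain than in cortex in 7 of 12 cases and higher in none, 6 of 11 without Pcdha2, with a median log2 fold change of −0.46, beside 37.7% lower and a median of 0.00 over all genes. Both alpha C-type genes were lower in midbrain, at −0.33 ± 0.122 for Pcdhac1 (adjusted p = 0.018) and −0.32 ± 0.069 for Pcdhac2 (adjusted p = 0.000252). The call of Pcdhac1 was lost with hu/hu libraries only (−0.21, adjusted p = 0.304) and with the lowest alpha count taken off (−0.28, adjusted p = 0.138). Pcdha12 had 3.55 to 4.70 TPM in P21 midbrain and 5.17 to 7.39 TPM in cortex (log2 fold change −0.76 ± 0.087, adjusted p = 2.85e-08). Pcdha11 had 5.05 to 6.48 TPM and 7.36 to 10.1 TPM (−0.66 ± 0.075, adjusted p = 2.58e-08). The ranges of these 2 genes did not overlap between the regions. Pcdha1, at the opposite end of the cluster (0.07 ± 0.150, adjusted p = 0.668), and, in its middle, Pcdha6 (−0.07 ± 0.123, adjusted p = 0.622) and Pcdha7 (−0.19 ± 0.114, adjusted p = 0.145) did not pass the test, and the sign of the first of them turned with wt/wt libraries only and that of Pcdha6 with the lowest alpha count taken off. Across the 11 variable alpha genes other than Pcdha2, Spearman's rho between position along the cluster and the region log2 fold change was −0.745, a description across genes measured in the same libraries. The like value was 0.0961 for 21 beta genes and −0.25 for 17 gamma A and B genes.

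Beta genes were divided between the regions, with 5 of 21 tested higher in midbrain and 6 lower, beside 37.9% and 37.7% of all genes. The median log2 fold change of the beta genes was 0.04. Pcdhb13 had the lowest value, with 1.36, 1.67 and 1.94 TPM in the lowest, median and highest midbrain library and 2.49, 2.89 and 3.07 TPM in cortex, which did not overlap (log2 fold change −0.88 ± 0.094, adjusted p = 1.03e-08). Pcdhb5 (−0.58 ± 0.099, adjusted p = 1.31e-05) and Pcdhb7 (−0.46 ± 0.098, adjusted p = 0.000195) followed. Pcdhb21 had the highest value, with 1.58 to 2.63 TPM in midbrain and 0.920 to 1.84 TPM in cortex (0.46 ± 0.138, adjusted p = 0.00483), ahead of Pcdhb8 (0.35 ± 0.118, adjusted p = 0.0103) and Pcdhb10 (0.30 ± 0.112, adjusted p = 0.0198). The 2 regions overlapped in TPM for 20 of 22 beta genes, and the share of all genes that overlapped was not counted. With wt/wt libraries alone 1 beta gene was called higher in midbrain and with hu/hu libraries alone 5 were. The calls of Pcdhb8 and Pcdhb10 were lost with wt/wt only, and that of Pcdhb21 with hu/hu only.

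In the gamma cluster, 2 gamma A genes were higher and 4 lower in midbrain, beside 37.9% and 37.7% of all genes. Of gamma B, 3 genes were higher and 2 lower. Without the rows that hold constant exons the counts were 2 and 3 of 11 gamma A genes, and 3 and 1 of 6 gamma B genes. Pcdhgb5 (4.18 ± 0.264 TPM in midbrain, 2.79 ± 0.566 TPM in cortex, log2 fold change 0.51 ± 0.115, adjusted p = 0.000359) and Pcdhgb6 (8.82 ± 0.892 and 6.29 ± 0.384 TPM, 0.41 ± 0.070, adjusted p = 1.11e-05) were the highest in midbrain relative to cortex. Pcdhgb4 was at 0.20 ± 0.092 (adjusted p = 0.0547), a call lost when any of 10 of the 16 libraries was left out. Pcdhgb8 (−0.51 ± 0.109, adjusted p = 0.0002) was lower in midbrain, and Pcdhgb7 had 0.06 ± 0.085 (adjusted p = 0.533). Of gamma A, Pcdhga2 (0.26 ± 0.084, adjusted p = 0.0084) and Pcdhga7 (0.25 ± 0.070, adjusted p = 0.00273) were higher in midbrain, though not called with wt/wt libraries only (0.20 and 0.18), and Pcdhga4 at 0.16 ± 0.078 (adjusted p = 0.0701) was not called. Pcdhga1 (−0.66 ± 0.106, adjusted p = 5.71e-06) and Pcdhga11 (−0.45 ± 0.064, adjusted p = 1.01e-06) were lower.

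The rows with constant exons were all lower in midbrain than in cortex. Pcdhgb2 was listed at 131, 135 and 140 TPM in the lowest, median and highest midbrain library and 220, 237 and 252 TPM in cortex (log2 fold change −0.89 ± 0.028, adjusted p = 3.75e-19), with ranges far apart. Pcdha2 had 33.1 ± 1.84 and 55.5 ± 1.33 TPM (−0.82 ± 0.032, adjusted p = 2.75e-17), and Pcdhga6 had 67.8 ± 2.52 and 96.9 ± 4.88 TPM (−0.59 ± 0.033, adjusted p = 4.42e-14). Summed over the genes taken to hold only their own exons, gamma A stood at 72.9 ± 1.67 TPM in midbrain and 73.7 ± 2.92 TPM in cortex, gamma B at 29.8 ± 1.64 and 24.8 ± 0.888 TPM, and gamma C at 105 ± 3.95 and 141 ± 5.04 TPM. The shared gamma rows and the gamma C level were thus the ones lower in midbrain. Marker genes differed between the regions too, with all 5 oligodendrocyte markers higher in midbrain (19816 to 22304 against 5725 to 6461 TPM summed) and 3 of 5 neuron markers lower and 1 higher (3443 to 3810 against 3996 to 4334 TPM), and their part in the region differences was not tested.

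**Figure D3:**
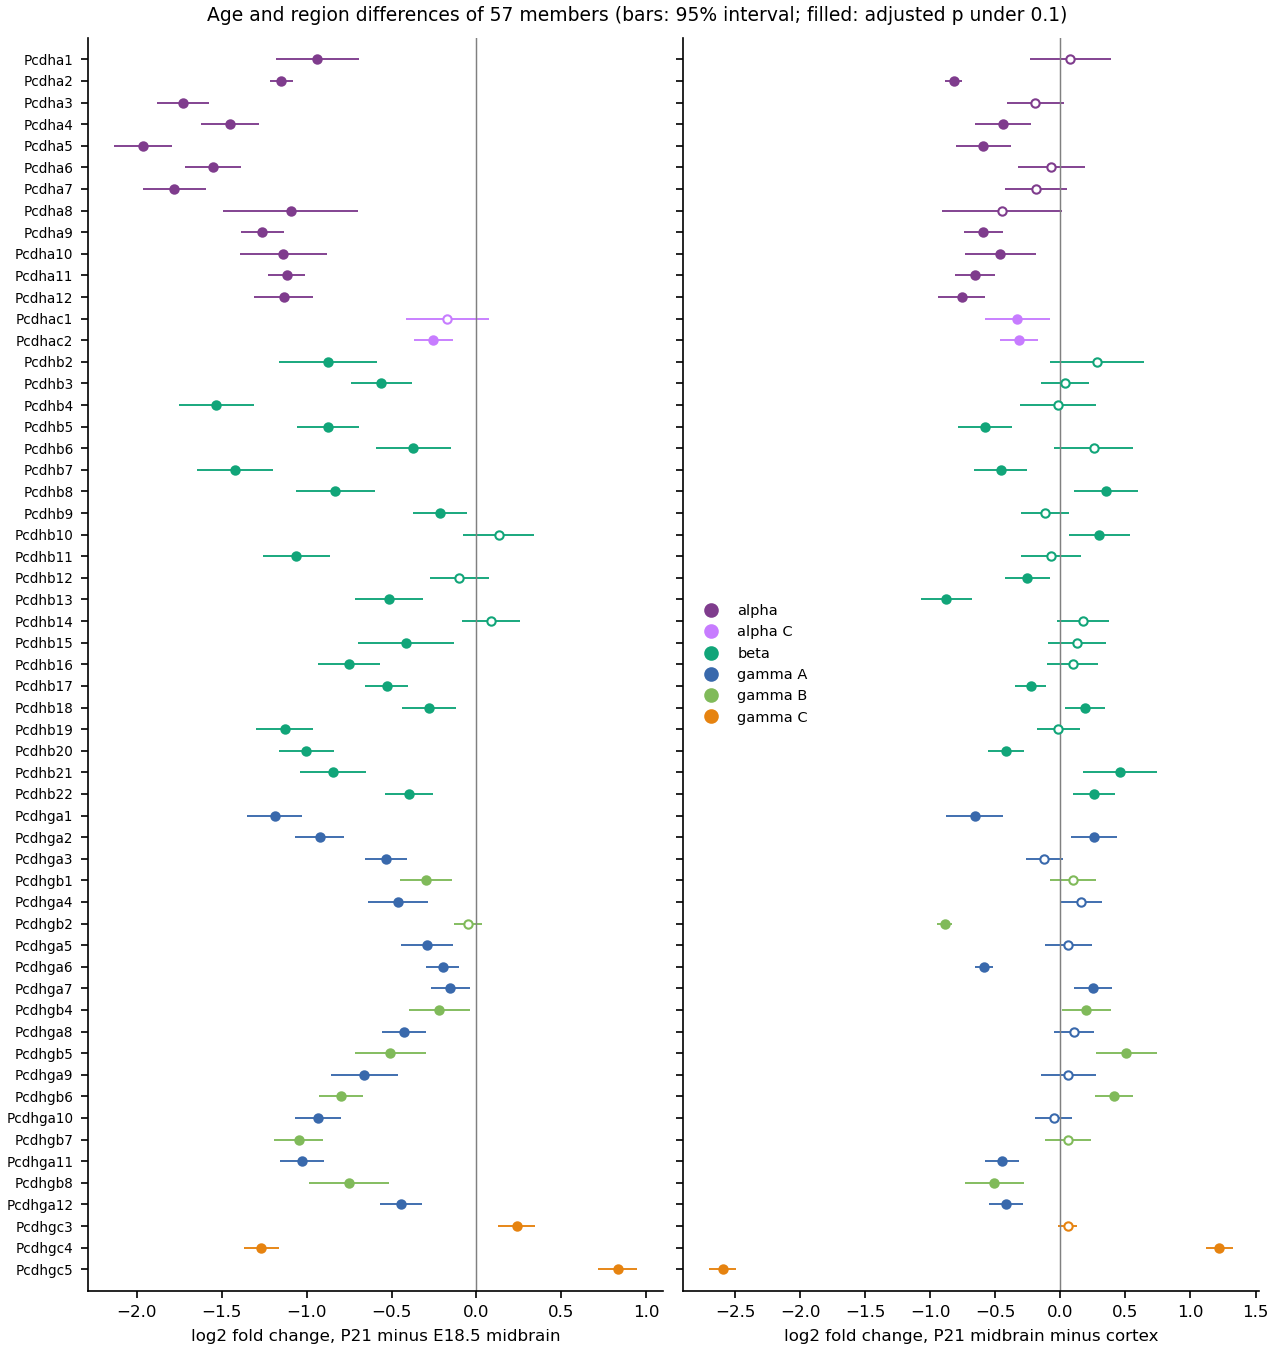
Log2 fold change of the 57 tested members, P21 minus E18.5 midbrain on the left and P21 midbrain minus P21 cortex on the right, with 95% intervals; filled points passed p under 0.05 and adjusted p under 0.1, and colours give the group. On the left all points lie below 0 apart from Pcdhgc3, Pcdhgc5, Pcdhb10 and Pcdhb14. On the right the alpha members apart from Pcdha1 lie below 0, and beta and gamma members lie on both sides. Only Pcdhgc4 at 1.22 and Pcdhgc5 at −2.60 differ there by at least 2-fold.

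**Figure D4:**
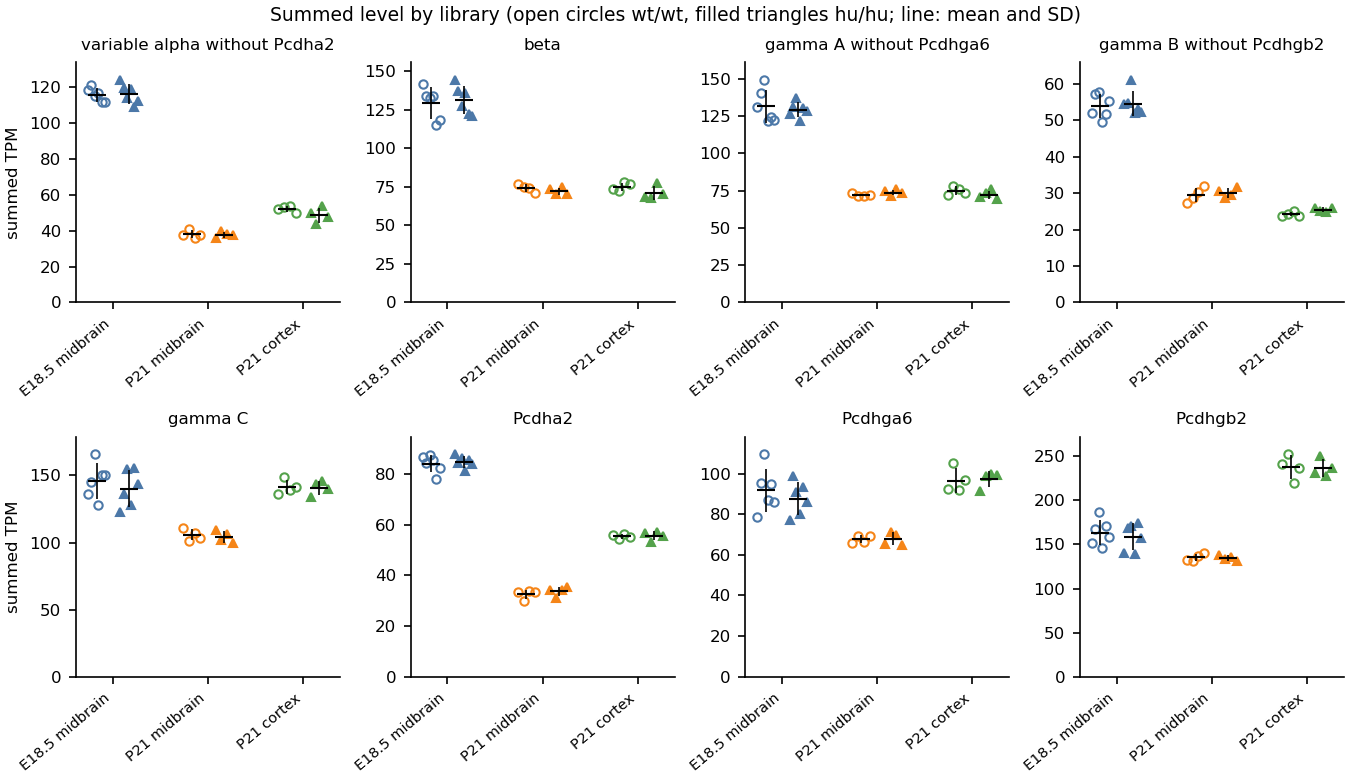
Summed TPM by library of the variable alpha, beta, gamma A, gamma B and gamma C genes and of the 3 rows taken to hold constant exons, by tissue, with open circles for wt/wt, filled triangles for hu/hu, and lines for the mean and SD of each group. The variable groups sit lower at P21 in both regions than at E18.5, whereas Pcdhgb2 is highest in P21 cortex.

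Whether the humanized NOVA1 changes the clustered protocadherins was examined within each tissue. No member was called in E18.5 midbrain, P21 midbrain or P21 cortex by edgeR's quasi-likelihood test. Of all 15540, 15972 and 15767 genes, 0% were called. DESeq2 called 0, 1 and 0 genes, and edgeR with the replicate block called 0, 4 and 0, none of them a member. At an unadjusted edgeR p under 0.05 there were 0, 2 and 0 of 57 members, beside 1.29%, 2.67% and 2.85% of all genes. With the replicate block there were 0, 1 and 2 members, and the share of all genes was not counted. The median log2 fold change of the members, hu/hu minus wt/wt, was −0.01, 0.01 and −0.04, and the range −0.27 to 0.23, −0.39 to 0.28 and −0.31 to 0.28. Precision was enough to bound most members, since the 95% interval lay within a 1.5-fold difference in either direction for 56, 51 and 52 of 57 members, beside 88.2%, 84.8% and 85.6% of all genes. Among the beta genes the interval did so for 21, 19 and 19 of 21. These intervals, and the SEs and exact permutation p below, do not use the pairing of same-numbered libraries.

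The members with the smallest edgeR p in each tissue were as follows. Here and below, the exact permutation p is unadjusted and from a separate test. Adjusted p is that of edgeR's test and not of the permutation test. At E18.5, Pcdhb14 had 4.15, 4.38 and 5.15 TPM in the lowest, median and highest hu/hu library and 3.19, 3.88 and 4.87 TPM in wt/wt, which overlap (log2 fold change 0.23 ± 0.122, exact permutation p = 0.0649, adjusted p = 1). Pcdhgb1 had 6.30, 6.74 and 6.97 TPM against 6.81, 7.44 and 8.51 TPM (−0.17 ± 0.094, exact permutation p = 0.0216, adjusted p = 1), and Pcdhac2 had 21.4, 25.0 and 26.1 TPM against 24, 26.2 and 29.0 TPM (−0.11 ± 0.067, exact permutation p = 0.0563, adjusted p = 1). Both also overlapped between the genotypes. By TPM, Pcdhgb1 was lower in hu/hu in 5 of 6 same-numbered pairs. Pcdhac2 was higher in hu/hu in replicate 4 (25.37 against 24.01 TPM) and replicate 5 (26.11 against 25.87 TPM), and lower in the other pairs.

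In P21 midbrain, Pcdha7 had 2.40, 2.82, 2.30 and 2.65 TPM in the hu/hu libraries and 4.21, 3.24, 3.0 and 2.91 TPM in the wt/wt libraries. Its groups did not overlap (log2 fold change −0.37 ± 0.165, lower in hu/hu in 4 of 4 same-numbered pairs, adjusted p = 1), and the exact permutation p of 0.0286 is the smallest that 4 against 4 libraries allow. With each library left out in turn, its log2 fold change was between −0.44 and −0.26. Pcdhga9 had 5.16, 4.27, 4.93 and 4.41 TPM in hu/hu and 4.18, 3.82, 3.22 and 4.26 TPM in wt/wt, likewise without overlap (0.28 ± 0.131, exact permutation p = 0.0286, adjusted p = 1). Pcdhb9 had 5.42, 6.11, 5.05 and 5.35 TPM against 5.51, 6.95, 7.18 and 5.91 TPM, with overlap (−0.21 ± 0.116, exact permutation p = 0.143, adjusted p = 1). In all, 4 of 57 members did not overlap between the genotypes in P21 midbrain, where 1.95% of all genes did not, and 2 of 57 in P21 cortex, where 2.17% did not. At E18.5 this was 0 of 57 members and 0.0515% of all genes.

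In P21 cortex, Pcdhga1 had 3.46, 4.15, 4.43 and 3.17 TPM in hu/hu and 4.20, 4.24, 5.70 and 4.86 TPM in wt/wt (log2 fold change −0.31 ± 0.149, exact permutation p = 0.114, adjusted p = 1). Pcdhb14 had 2.76, 2.31, 3.63 and 3.18 TPM against 3.35, 3.49, 3.62 and 3.88 TPM (−0.27 ± 0.140, exact permutation p = 0.0857, adjusted p = 1). Both genes overlapped between the genotypes. By TPM, Pcdhga1 was lower in hu/hu in 4 of 4 same-numbered pairs, whereas Pcdhb14 was not lower in 1 pair (3.63 against 3.62 TPM). Pcdhb19 had 2.69, 2.31, 2.56 and 2.45 TPM against 2.85, 2.87, 2.95 and 2.83 TPM, without overlap (−0.20 ± 0.108, exact permutation p = 0.0286, adjusted p = 1).

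Of the groups, the gamma C genes had the smallest median SE in each tissue. Their log2 fold changes lay between −0.07 and 0.10 at E18.5, between −0.03 and 0.02 in midbrain at P21, and between −0.05 and 0.03 in cortex, with median SEs of 0.076, 0.062 and 0.054. The value of 0.10 ± 0.082 was that of Pcdhgc5 (exact permutation p = 0.039, adjusted p = 1). For each group of members the summed TPM of the 2 genotypes overlapped. The beta level was 131 ± 9.26 TPM in hu/hu and 129 ± 10.4 TPM in wt/wt at E18.5 (n = 6 each), 72.3 ± 2.27 and 74.2 ± 2.30 TPM in P21 midbrain (n = 4 each), and 71.1 ± 4.49 and 75.1 ± 2.66 TPM in P21 cortex (n = 4 each). For the 11 variable alpha genes it was 116 ± 5.51 and 116 ± 3.78 TPM, 37.9 ± 1.67 and 38.0 ± 2.12 TPM, and 48.7 ± 4.15 and 52.2 ± 1.75 TPM. In P21 cortex the beta, variable alpha and gamma A levels were each lower in hu/hu in 4 of 4 same-numbered pairs, whereas in P21 midbrain these were lower in 3, 3 and 0 of 4 pairs and at E18.5 in 1, 3 and 4 of 6, and no test was made of these sums.

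**Figure D5:**
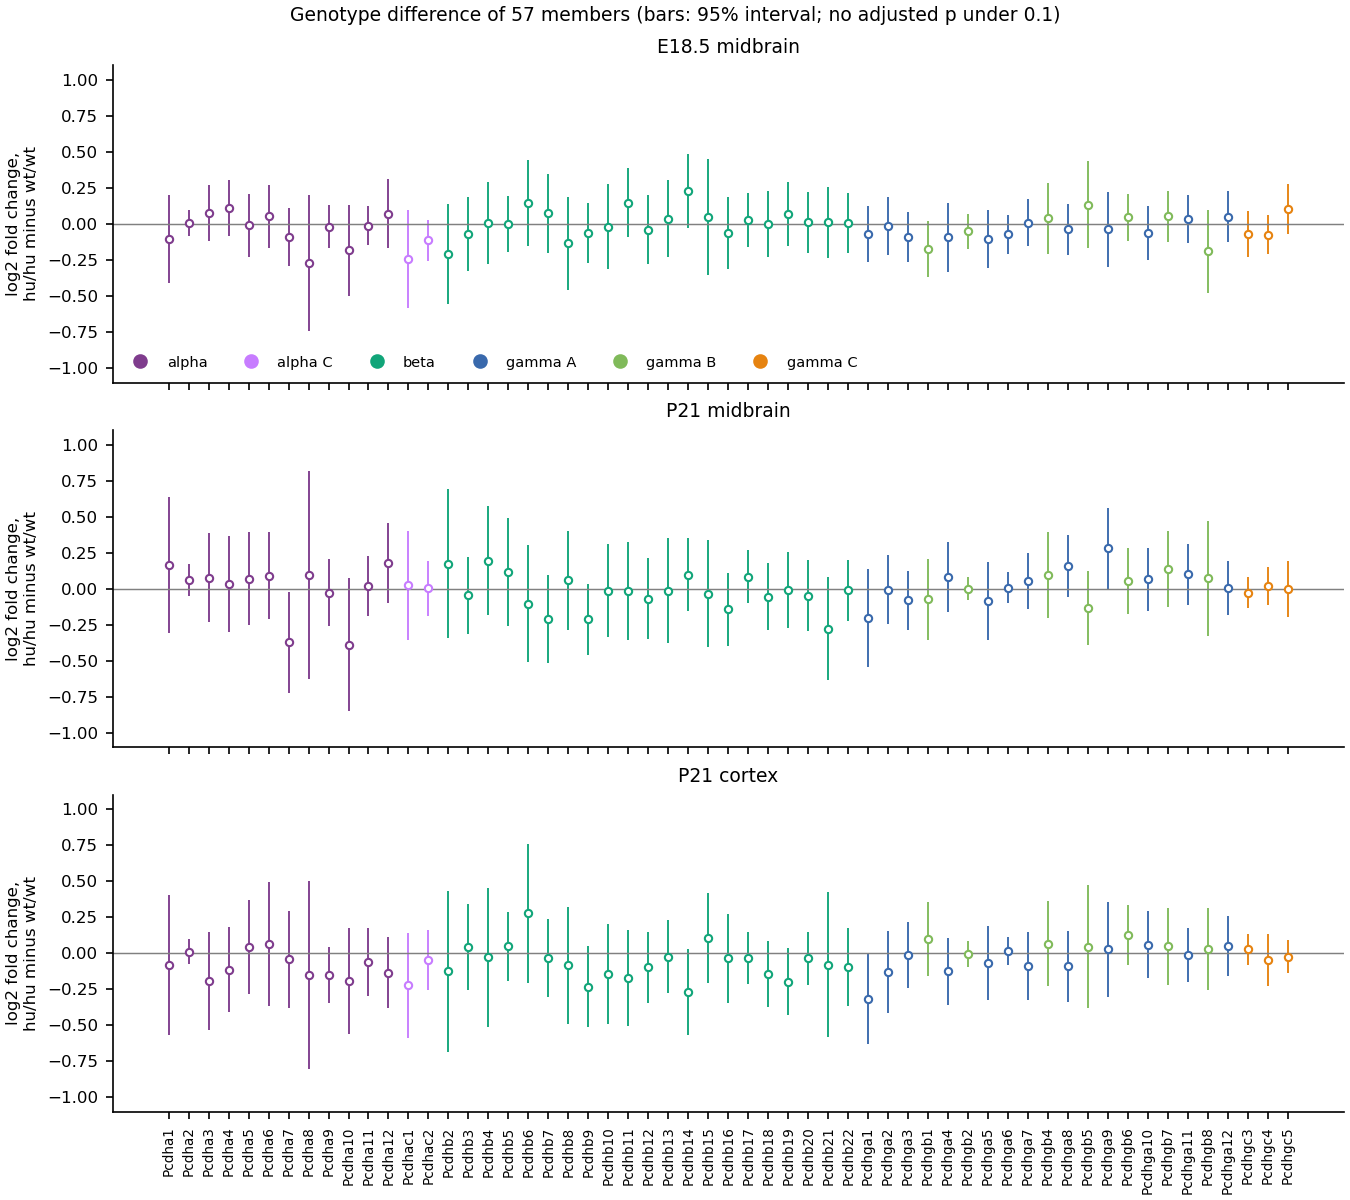
Log2 fold change of 57 members between hu/hu and wt/wt (hu/hu minus wt/wt) in each tissue with 95% intervals, in chromosomal order and coloured by group. No member passed an adjusted p under 0.1, and most intervals reach across 0.

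Tests of whether the genotype difference itself changed with region or age called 0 of 57 members each (0% of all genes, edgeR's quasi-likelihood test), with 0 members at an unadjusted p under 0.05 in either, beside 2.28% and 1.86% of all genes. Pcdhb14 had the smallest p for the region interaction (effect difference 0.37 ± 0.181 on the log2 scale, adjusted p = 1, edgeR), with a larger value of hu/hu minus wt/wt in midbrain than in cortex. For Pcdhgc4 and Pcdhgc5 the interaction with region was 0.07 ± 0.099 and 0.02 ± 0.098, small against their region differences.

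Genes of the machinery around the clusters were described from lists. Of 20 chromatin regulators, which include CTCF, the cohesin subunits and loaders, SMCHD1, SETDB1 and the DNA methyltransferases and TET enzymes, all 20 were lower at P21 than at E18.5 (43.3% of all genes), with a median log2 fold change of −0.81. Ctcf, which sets the promoter to enhancer loops of the clusters, went from 74.6 to 43.3 mean TPM (log2 fold change −0.58 ± 0.033, adjusted p = 5.06e-15). At least 2-fold lower were Dnmt3b (−2.05 ± 0.144), the de novo methyltransferase known to mark variable promoters early, Dnmt1 (−1.43 ± 0.036), Smchd1 (−1.42 ± 0.041), a silencing factor at the clusters, the cohesin genes Stag1 (−1.10 ± 0.043) and Smc3 (−1.04 ± 0.047), and Tet1 (−1.06 ± 0.057). Between regions 8 were higher and 6 lower in midbrain, beside 37.9% and 37.7% of all genes, and none differed by 2-fold. Ctcf was named after its values were seen.

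Of 20 genes for cytoplasmic partners and proteases, 12 were higher and 7 lower at P21, beside 42.4% and 43.3% of all genes. The gene of the kinase PYK2, Ptk2b, rose with age (log2 fold change 4.18 ± 0.117) and was 7.95-fold lower in midbrain than in cortex, and Cyfip2 (2.14-fold), a WAVE complex gene, and the receptor tyrosine kinase gene Ret (1.25 ± 0.053) rose as well. Marcks, which encodes a kinase substrate that binds membrane and actin, fell (−1.73 ± 0.041). Between regions 6 were higher and 11 lower in midbrain, beside 37.9% and 37.7% of all genes. Prkca was 2.70-fold and Wasf1, a WAVE complex subunit, 3.64-fold lower in midbrain, and Ret 12-fold higher.

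Non-clustered protocadherins, which lie outside the 3 clusters, shared the direction of the age difference in part. Of 12 genes 8 were lower and 2 higher at P21, beside 43.3% and 42.4% of all genes. Pcdh11x (−2.03 ± 0.055), Pcdh12 (−1.99 ± 0.132), Pcdh18 (−1.92 ± 0.050), Pcdh19 (−1.55 ± 0.043) and Pcdh8 (−1.05 ± 0.056) fell by at least 2-fold. Between regions 7 were higher and 4 lower in midbrain, beside 37.9% and 37.7% of all genes. Of 13 genes beside the clusters on chromosome 18, 5 were higher and 6 lower at P21 with a median of −0.06. In midbrain against cortex 5 were higher and 5 lower, with a median of 0.03. These counts stand beside the same shares of all genes, near which they lie. Of these, Rell2 rose with age (1.07 ± 0.059) and the intronless Slc25a2, at a mean of 0.653 TPM in midbrain and 0.281 TPM in cortex, was 2.20-fold higher in midbrain. None of these lists had a gene called between genotypes in any tissue, where 0% of all genes were.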

How the data were processed

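RNA was extracted from whole tissue and poly(A)-selected libraries were sequenced as paired ends on an Illumina HiSeq. Alignment to mm10 used OLego, and Quantas gave the gene counts. The authors deposited 1 table per library with an estimated count per gene, an RPKM value (the count scaled by exon length and library total) and the exon length. The gene annotation version, the use of strand, and the counting of reads that match several members are not given in the sources used here, so counts of similar members and of antisense genes are uncertain. The authors' edgeR comparisons were not used.

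TPM was computed from the deposited counts and exon lengths. For tests, estimated counts were rounded, and genes passing edgeR's filterByExpr were tested with edgeR 4.0.16 (R 4.3.3) by glmQLFit and glmQLFTest after TMM scaling, between genotypes within each tissue, between P21 midbrain and cortex with genotype as a term, between ages of midbrain with genotype as a term, and for the interactions. A gene was called at p under 0.05 and Benjamini-Hochberg adjusted p under 0.1 over all genes tested. Exact permutation tests were two-sided, on the difference in mean log2 CPM (prior count 2), and their p was not adjusted. Members named are the 3 with the smallest p between genotypes, up to 3 with the highest and 3 with the lowest log2 fold change per variable group between regions and ages, the 5 C-type genes, and the 2 highest and 2 lowest by TPM per group. Genes of other lists are named where called with at least a 2-fold difference. The members and lists were chosen with earlier results of these data known.

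Same-numbered hu/hu and wt/wt libraries deviated together in each tissue (r over genes of 0.256 to 0.499 at E18.5, 0.266 to 0.300 for midbrain and 0.252 to 0.310 for cortex at P21), so their numbers were treated as pairing in a fit with the replicate number as a block. That the pairing comes from litters or batches is not stated. Numbers did not pair libraries across regions or ages. In the region and age fits the block nonetheless joined same-numbered libraries of both tissues, so it is a weak check there. Alternatives were other scalings, DESeq2 1.42.0, other filters and thresholds, 1 genotype alone, each library left out in turn, and removal of the lowest member's count. The function that fits the tests was tried on simulated counts with known changes.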

Additional observations from a re-analysis of the deposited data

Results flagged for a closer look

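In groups of 4 or 6 libraries, the highest or lowest library was compared with the others by Dixon's ratio. This was done for the summed levels, the C-type genes, Pcdha2, Pcdhgb2 and Pcdhga6. In all, 4 of 84 group tests passed the 95% critical value, where chance alone flags about 1 in 20. The summed gamma B level without Pcdhgb2 was 61.1 TPM in E18.5 midbrain hu/hu replicate 3, above the 52.1 to 54.7 TPM of the other 5. Pcdhgc3 was at 67.3 TPM in P21 cortex hu/hu replicate 2, above the 60.7 to 61.5 TPM of the other 3. Pcdha2 was at 29.7 TPM in P21 midbrain wt/wt replicate 2, below the 33.3 to 33.8 TPM of the other 3, and Pcdhga6 was at 91.3 TPM in P21 cortex hu/hu replicate 1, below the 98.9 to 99.9 TPM of the other 3. The values came from different libraries.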

How the results depend on the processing

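Between genotypes and for both interactions, 0 members were called under each alternative run, 0 with the replicate block included and 0 to 0 with each library left out in turn. With the replicate block 33 members were called between regions, and 52 between ages with 1 call lost (Pcdhga7) and 1 gained (Pcdhac1). In these 2 comparisons the block joined libraries whose numbers did not pair them, so these counts say little about pairing. Leaving out each library in turn gave 32 to 35 members between regions, with 9 to 11 alpha members lower in midbrain and 5 to 6 beta members higher, and 52 between ages. With wt/wt libraries only, 1 beta member was higher in midbrain and 26 members were called between regions. At a minimum of 2-fold, 2 members remained between regions, with 0 alpha lower, 0 beta higher and 0 beta lower, and 20 between ages, with 5 beta and 3 gamma A and B members lower. Without Pcdha2, Pcdhgb2 and Pcdhga6, an alternative chosen after seeing the data, 30 and 50 were called. Of the 33 region calls 21, and of the 52 age calls 44, kept their call and direction in each of 26 and 30 settings, which leave out the 2-fold minimum and the removal of the lowest member's count. With that count taken off, 34 and 46 were called and Pcdhgb4 was called in the opposite direction with age.

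Signs turned in 9 of 707 values of named members. With the lowest member's count taken off, these were Pcdha6 between regions (0.0413) and, with age, Pcdhac1 (0.39), Pcdhga5 (0.10), Pcdhga7 (0.12), Pcdhgb1 (0.27) and Pcdhgb4 (0.90, adjusted p = 0.0141, edgeR). With total counts only, these were Pcdhb14 (−0.0698) and Pcdhb10 (−0.0242) with age, and with wt/wt libraries only Pcdha1 between regions (−0.0559). The cause was not tested. With the lowest member's count taken off, Pcdha2 held 40.04%, 39.1% and 46.0% of the alpha TPM in the E18.5, P21 midbrain and P21 cortex libraries instead of 36.9%, 36.1% and 42.6%, and Pcdhgb2 held 32.7%, 37.0% and 45.5% of the gamma TPM instead of 27.8%, 32.9% and 41.3%. With total counts only, 41.5% of all age calls were higher at P21 instead of 49.5%, and Pcdhac1, Pcdhb12 and Pcdhgb2 were called lower. Single-library calls between regions also moved for Pcdhgc3 (0.07, called without P21 cortex hu/hu replicate 2), Pcdha7 (−0.25, called without P21 midbrain wt/wt replicate 1) and Pcdhga4 (called without any of 5 libraries). Depth limits Pcdhb1, at 0 to 6 counts, and the members with few counts such as Pcdha8.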
